A study of Homo sapiens with 6 samples.

Results

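Cytosolic ribosomal proteins were described here in SEM cells by the expression of their genes. The members were the protein-coding genes whose symbol is RPL or RPS with a number and, where present, the suffix A, X, L or L1, together with RPLP0, RPLP1, RPLP2 and RPSA. Kinases named RPS6K and the genes RPS4Y1 and RPS4Y2 were left out. This gave 85 members of 57820 genes listed, 20345 of them protein-coding. Of the members, 52 belong by name to the large subunit and 33 to the small subunit. Of the 85 members, 83 had at least 1 CPM (counts scaled to the library size times its TMM factor) in at least 1 library and were tested. The 2 others were RPL10L, listed at 0 in all 6 libraries, and RPL3L, at most 0.0974 CPM.

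The ribosome translates messenger RNA with a small subunit that decodes and a large subunit that forms the peptide bonds, and each subunit is built from ribosomal RNA and many different proteins, most of them needed at equal number. Messenger RNAs of ribosomal proteins usually start with a C and a run of pyrimidines, the TOP motif, through which mTOR and LARP1 control their translation, and many of the genes carry small nucleolar RNAs in their introns. Mutations of single ribosomal protein genes are known from Diamond-Blackfan anemia and from leukemia.

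The comparison was between 3 CTCF-WT and 3 CTCF-dRBR libraries of total RNA. SEM is a human cell line of B-cell acute lymphoblastic leukemia (B-ALL). In both groups the endogenous CTCF carries a miniAID-mClover3 tag, OsTIR1(F74G) is made constitutively, and the tagged protein is degraded under 5-Ph-IAA. The labels give the genotype CTCF-miniAID-mClover3 for CTCF-WT and the same with TRE3G-HA-CTCF-dRBR for CTCF-dRBR, a doxycycline-inducible HA-tagged CTCF lacking the RNA-binding region (RBR). The methods describe wild-type HA-CTCF in the first group, which its labels do not name. Cells of both groups were kept in 5-Ph-IAA for 24 h, with 1 µg/mL doxycycline for the last 18 h. The labels do not say whether the 3 libraries of a group came from separate cultures, so the p-values measure the spread between these libraries, which may be technical.

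Total expected counts were between 51732177 and 53166735 in CTCF-WT and between 30034505 and 50457168 in CTCF-dRBR, with CTCF-dRBR replicate 1 the shallowest. Across the 83 members tested, Spearman's rho of CPM between CTCF-dRBR replicate 1 and the other libraries was 0.808 to 0.937, and CTCF-WT replicate 3 was most like CTCF-dRBR replicate 3 (rho = 0.991, a description across genes that share libraries and depth). Of 8 markers of B precursors 7 were tested and DNTT was at most 0.29 CPM. The markers summed to between 609 and 1067 CPM, lowest in CTCF-dRBR replicate 1. Markers of T cells, erythroid cells and megakaryocytes summed to at most 0.602 CPM in any library, and myeloid markers to between 5.47 and 6.70 CPM, almost all of it LYZ. CTCF itself had 209.9, 211 and 249 CPM (CTCF-WT) against 273, 264 and 252 CPM (CTCF-dRBR). Such a count per gene does not tell the endogenous CTCF from the induced HA-tagged form. In bulk RNA, a change in the number of cells of a type and a change in RNA per cell cannot be told apart.

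The starts of a few members are shown because a pyrimidine start is more frequent among these genes than among all genes, and because some paralogs differ from their partners there. RefSeq promoter windows on GRCh38.p14 held an entry for 65 members. A start was counted as TOP-like where the annotated first base, on the strand of the gene, was a C followed by at least 4 pyrimidines (C or T). This held for 46 of the 81 member starts (56.8%) against 4.06% of all 34943 starts, and 46 of 65 members (70.8%) had at least 1 such start. Each line gives 10 bases before the annotated start and 20 from it, 5′ to 3′, with the pyrimidine run from a C at the start in capitals where it is TOP-like.
RPS3 (chr11:75399508-75399537, plus strand): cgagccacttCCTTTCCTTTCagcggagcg
RPL28 (chr19:55385922-55385951, plus strand): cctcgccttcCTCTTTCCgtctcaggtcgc
RPS21 (chr20:62387093-62387122, plus strand): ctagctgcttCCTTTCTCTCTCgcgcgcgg
RPL21 (chr13:27251548-27251577, plus strand): ccgcctctttCCTTTCggccggaaccgcca
RPS24 (chr10:78033853-78033882, plus strand): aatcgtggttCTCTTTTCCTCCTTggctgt
RPS27 (chr1:153990752-153990781, plus strand): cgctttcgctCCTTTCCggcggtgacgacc
RPS27L (chr15:63157458-63157487, minus strand): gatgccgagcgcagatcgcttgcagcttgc
RPL22 (chr1:6199576-6199605, minus strand): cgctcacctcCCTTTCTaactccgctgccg
RPL22L1 (chr3:170870176-170870205, minus strand): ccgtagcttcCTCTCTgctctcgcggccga
RPL26 (chr17:8383174-8383203, minus strand): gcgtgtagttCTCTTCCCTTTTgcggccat
RPL26L1 (chr5:172958719-172958748, plus strand): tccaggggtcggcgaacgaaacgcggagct
RPL3 (chr22:39319604-39319633, minus strand): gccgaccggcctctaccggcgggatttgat
RPS26 (chr12:56041908-56041937, plus strand): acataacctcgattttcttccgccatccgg
RPS27 and RPL26 had the run at the annotated start, while RPS27L and RPL26L1 did not, and both RPL22 and RPL22L1 had it. RPL3 and RPS26 did not pass the definition at these annotated starts. A match is a description of these letters and no test of a TOP function.

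Transcript levels of different members are compared per length, as TPM rescaled so that protein-coding genes make up the whole total of a library, because their part of the deposited TPM was 30.2% in the lowest library and 63.2% in the highest. On this scale 74 of the 83 members tested had a mean over 1000 TPM, and the median member had 2412 TPM. By the mean on this scale the 5 highest were, in falling order, RPL21, RPS27, RPS24, RPL26 and RPL7. RPL21 had 7476, 7576 and 8153 TPM (CTCF-WT) against 7548, 8834 and 7865 TPM (CTCF-dRBR), and the groups overlapped. RPS27 had 11983, 9846 and 7468 TPM (CTCF-WT) against 3379, 6564 and 7866 TPM (CTCF-dRBR), highest in CTCF-WT replicate 1 and lowest in CTCF-dRBR replicate 1. The level of RPS24 was 6577, 6167 and 6830.3 TPM (CTCF-WT) against 12229, 6943 and 6869 TPM (CTCF-dRBR), with replicate 1 of CTCF-dRBR alone far above the rest.

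The lowest members were the paralogs RPL39L, RPS27L, RPL26L1, RPL22L1 and RPL7L1 and, apart from them, RPS16, a protein of the small subunit. RPS16 had 203, 98.4 and 82.4 TPM (CTCF-WT) against 19.7, 103 and 132 TPM (CTCF-dRBR), and its CPM were 64.9, 34.8 and 28.9 CPM (CTCF-WT) against 10.6, 32.6 and 41.4 CPM (CTCF-dRBR). Next came RPLP1, an acidic protein of the large-subunit stalk, with 1025, 375 and 283 TPM (CTCF-WT) against 42.8, 402 and 713 TPM (CTCF-dRBR). Both varied several-fold within each group, with the lowest value in CTCF-dRBR replicate 1 and the highest in CTCF-WT replicate 1. Why these 2 were listed below the other proteins of the ribosome was not tested.

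As a share of all counts in protein-coding genes, the 85 members held 10.2%, 9.83% and 9.30% in CTCF-WT replicates 1, 2 and 3. In CTCF-dRBR replicates 1, 2 and 3 they held 9.30%, 9.03% and 9.31%. The means were 9.77 ± 0.439% in CTCF-WT and 9.21 ± 0.160% in CTCF-dRBR (SD, n = 3), and CTCF-WT replicate 3 lay within the CTCF-dRBR range. Of the same total the large subunit held 5.85 ± 0.190% in CTCF-WT and 5.61 ± 0.0758% in CTCF-dRBR. The small subunit held 3.92 ± 0.249% in CTCF-WT and 3.60 ± 0.0874% in CTCF-dRBR. With all genes as the denominator the members held 8.38 ± 0.0123% in CTCF-WT and 8.30 ± 0.235% in CTCF-dRBR, so the difference depended on the denominator. As a share of the TPM of protein-coding genes the members held 24.9 ± 1.37% in CTCF-WT and 24.04 ± 0.401% in CTCF-dRBR, and of the TPM of all genes 9.72 ± 2.27% in CTCF-WT and 12.9 ± 2.54% in CTCF-dRBR, a higher mean in CTCF-dRBR. The direction thus turned with all genes as the denominator of TPM, a total of which protein-coding genes made up an unequal part in the 6 libraries. No test was made on these shares.

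No member passed an adjusted p under 0.05 in limma-voom, where 0.0% of the 14044 genes tested did. The log2 fold changes of CTCF-dRBR against CTCF-WT were below 0 for 58 members and above 0 for 25. Over all 14044 genes tested they were below 0 for 7112 and above 0 for 6932. In the members with a value given here they ran from −1.40 to 0.42. The median over the 83 members tested was −0.15, against −0.0076 over all genes tested, but on log2(TPM + 1) it was 0.34, against 0.40 over all genes. At an unadjusted p under 0.05 there were 17 members lower in CTCF-dRBR, 20.5% of the members, against 12.8% of all genes, and 0 members higher, against 12.6%. By edgeR's quasi-likelihood test, also with 0 members past the adjusted threshold, the counts at an unadjusted p under 0.05 were 12 lower (14.5%, background 11.0%) and 0 higher (background 13.7%). The 2 groups did not overlap for 21 members lower in CTCF-dRBR (25.3%, background 17.5%) and for 5 members higher (6.02%, background 20%).

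Both subunits had medians below 0 in limma-voom, which on log2(TPM + 1) were 0.36 (large) and 0.16 (small) beside the 0.40 of all genes. The 50 members of the large subunit had a median log2 fold change of −0.11, with 8 lower (16%, background 12.8%) and 0 higher (background 12.6%) at an unadjusted p under 0.05. The 33 members of the small subunit had a median of −0.32, with 9 lower (27.3%) and 0 higher, against the same backgrounds. A difference between the subunits was not tested. The 6 paralogs tested had a median of 0.013. The sizes were small for many members, since 29 of the 83 had an absolute log2 fold change under 0.2, and the standard errors had a median of 0.17.

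**Figure D1:**
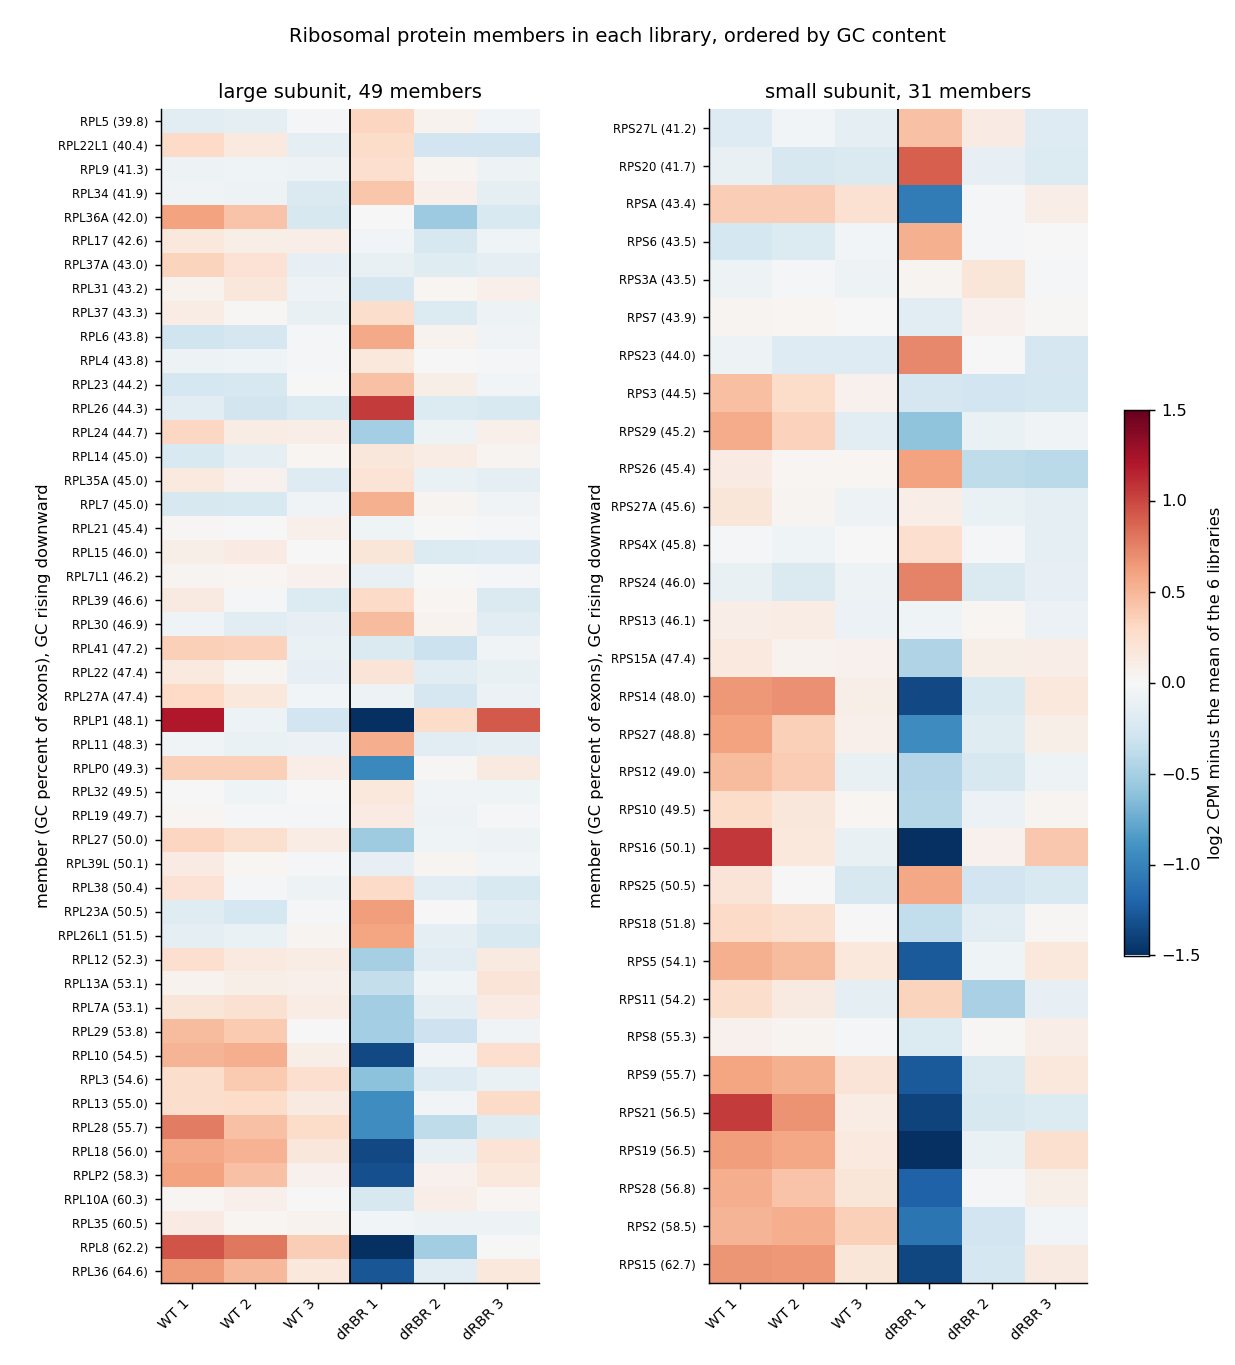
Heat map of the log2 CPM of the members reported here that have a GC value, each minus its mean over the 6 libraries, with a column for each library of CTCF-WT (WT) and CTCF-dRBR (dRBR). Members run downward by rising GC content of their exons, and CTCF-dRBR replicate 1 goes from high values at low GC to low values at high GC.

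The 5 members with the smallest p were RPS3, RPL28, RPL3, RPL8 and RPS2, all lower in CTCF-dRBR with no overlap between the groups. RPS3 (ENSG00000149273.10, chr11:75110559-75133324, plus strand of GRCh37), a small-subunit protein at the entry of the messenger RNA that also acts in DNA repair, had 1754, 1556 and 1346 CPM (CTCF-WT) against 1075, 1048 and 1072 CPM (CTCF-dRBR), each in the order of replicates 1, 2 and 3 as in all such lists here. The 3 values of CTCF-dRBR lay close together, under the lowest of CTCF-WT. The means were 1552 ± 204 CPM (CTCF-WT) and 1065 ± 14.4 CPM (CTCF-dRBR) (SD, n = 3), a log2 fold change of −0.54 (SE 0.12, adjusted p = 0.112) from limma-voom. The difference of RPS3 on log2(TPM + 1) was 0.0099, beside a median over all genes of 0.40. RPL28 (ENSG00000108107.8, chr19:55897300-55914618, plus strand), a large-subunit protein, had 483, 385 and 344 CPM (CTCF-WT) against 149, 217 and 249.6 CPM (CTCF-dRBR). Its log2 fold change was −0.99 (SE 0.22, adjusted p = 0.116), with every CTCF-dRBR library below every CTCF-WT library. The gene UBE2S overlaps RPL28 on the opposite strand.

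RPL3 (ENSG00000100316.11, chr22:39708887-39716394, minus strand), which reaches close to the peptidyl transferase centre, had 1875, 2041 and 1854 CPM (CTCF-WT) against 1014, 1366 and 1454 CPM (CTCF-dRBR). Its log2 fold change was −0.60 (SE 0.15, adjusted p = 0.130). RPL8 (ENSG00000161016.11, chr8:146015150-146017972, minus strand), another protein close to that centre, had 912, 826 and 616 CPM (CTCF-WT) against 159, 332 and 472 CPM (CTCF-dRBR), with a log2 fold change of −1.40 (SE 0.39, adjusted p = 0.142). Both had every CTCF-dRBR library below every CTCF-WT library, and in RPL8 the libraries within a group differed by more than in RPL3. RPS2 (ENSG00000140988.11, chr16:2012059-2014842, minus strand), a core protein of the small subunit, had 1987, 2021 and 1783 CPM (CTCF-WT) against 652, 1141 and 1356 CPM (CTCF-dRBR) and a log2 fold change of −0.94 (SE 0.27, adjusted p = 0.142). For each of these 5 members the difference of mean CPM had p = 0.1 in a two-sided exact permutation test, the smallest that 3 libraries against 3 allow.

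**Figure D2:**
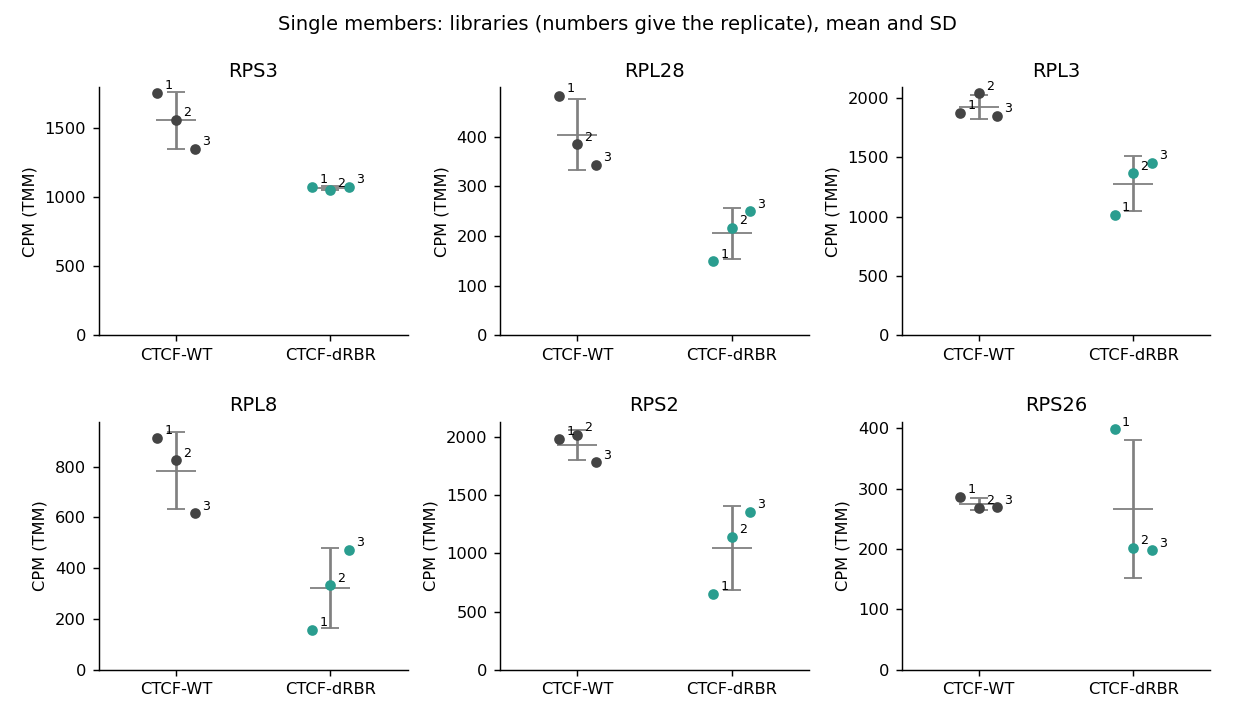
CPM of 6 members in each library (points, numbered by replicate) with the mean (bar) and SD of the 3 libraries. RPS3, RPL28, RPL3, RPL8 and RPS2 had no overlap between the groups, while RPS26 was highest in CTCF-dRBR replicate 1 and lowest in the other 2 CTCF-dRBR libraries.

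Among the lowest log2 fold changes were those of RPL8, RPS21, RPL28 and RPS15. RPS21, a small-subunit protein, had 288, 222 and 151 CPM (CTCF-WT) against 53.4, 117 and 121 CPM (CTCF-dRBR) and a log2 fold change of −1.20 (SE 0.37, adjusted p = 0.152). RPS15, a small-subunit protein whose gene is mutated in chronic lymphocytic leukemia, had 509, 505 and 366 CPM (CTCF-WT) against 125, 269 and 353 CPM (CTCF-dRBR) and a log2 fold change of −0.98 (SE 0.38, adjusted p = 0.185). In both the 3 CTCF-dRBR libraries lay below CTCF-WT, replicate 1 by far the lowest, and CTCF-dRBR replicate 3 of RPS15 only just below CTCF-WT replicate 3. The log2 fold change of RPS15 was −0.16 with the GC trend (treated next) removed, and −0.56 when CTCF-dRBR replicate 1 was left out. That of RPS21 was −0.72 and −0.84.

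The fold changes of members followed the GC content of their exons, as those of other genes did. GC content was taken over the union of all annotated exons of a gene, which can differ from that of the transcripts expressed. Over 82 members with a GC value, the log2 fold change and GC content had a Pearson r of −0.62 and a Spearman rho of −0.59, and over all 13654 genes tested with a GC value these were −0.58 and −0.68 (a description across genes in the same 6 libraries). The 21 members with the highest GC content (at least 53.6%) had a median log2 fold change of −0.77, and all 21 were below 0. The 3886 other genes of that GC range had a median of −0.56, with 89.4% below 0. At the other end the 21 members with the lowest GC content (at most 44.6%) had a median of 0.13, against 0.25 in 5490 other genes of that range. The high-GC members were thus lower, and the low-GC members less high, than the medians of other genes of like GC, a difference that was not tested.

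The libraries differed in the same respect. The deviation of each library from the mean of the 6 had a Spearman rho with GC content over the members of 0.525, 0.549 and 0.557 in CTCF-WT replicates 1, 2 and 3. In CTCF-dRBR replicates 1, 2 and 3 it was −0.577, −0.250 and 0.396. The 21 members with the highest GC content deviated by a median of −1.23 on the log2 scale in CTCF-dRBR replicate 1, by −0.16 in replicate 2 and by 0.092 in replicate 3. In the 21 with the lowest these medians were 0.26, −0.0078 and −0.073. CTCF-dRBR replicate 1 was below the other 5 libraries in 41 of the 83 members tested, above them in 31 of the 83 and within their range in 11. Of all genes tested it was below the others in 41.0% and above them in 39.4%.

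**Figure D3:**
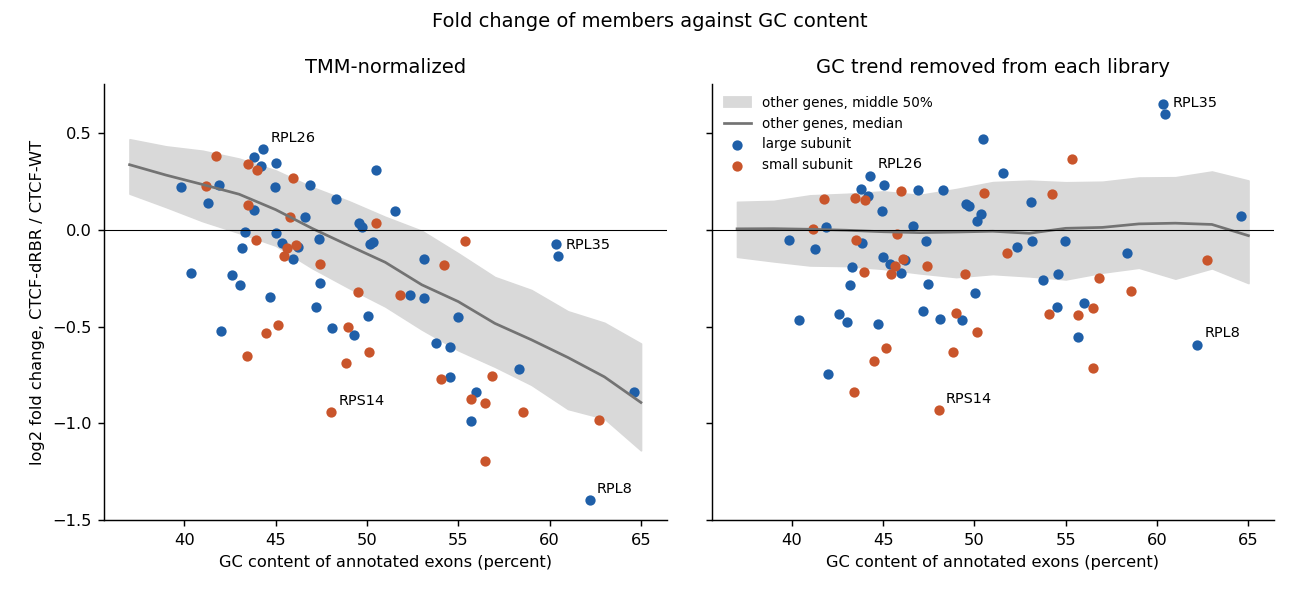
Log2 fold change of CTCF-dRBR against CTCF-WT for the members reported here, by GC content of the annotated exons, with TMM normalization (left) and after the GC trend of each library was removed (right). The line and band give the median and the middle 50% of the other genes tested in bins of 2 percentage points, and the members follow the line down on the left (rho = −0.59 over all 82 with a GC value) and show no slope on the right (rho = −0.0031).

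When the loess trend over GC content was removed from each library, the median of the members stayed at −0.15, with −0.26 in the 21 members of highest GC content and −0.067 in the 21 of lowest, against 0.013 and 0.0012 in the other genes of those ranges. In this fit 4 members were past an adjusted p under 0.05 from limma-voom, 0 of them higher (background 4.3%) and all lower in CTCF-dRBR (4.88% of 82, background 5.48%): RPL17, RPL28, RPL8 and RPS3. Their adjusted p were 0.0461 (RPL17), 0.0231 (RPL28), 0.0166 (RPL8) and 0.0309 (RPS3). In this fit the log2 fold change of RPS3 was −0.68, while those of RPL28 (−0.55), RPL3 (−0.23), RPL8 (−0.59) and RPS2 (−0.32) were closer to 0 than before. RPS3 and RPL17 have GC contents below the median of the members, RPL28 and RPL8 above it.

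Without CTCF-dRBR replicate 1, the library that stood apart, 4 members were past the threshold of limma-voom, with 0 higher (background 1.52%) and all lower in CTCF-dRBR (4.82% of 83, background 2.37%): RPL28, RPL3, RPS2 and RPS26. DESeq2 on all 6 libraries called 0 members higher (background 5.38%) and 8 lower (9.64%, background 6.14%), among them RPL28, RPL29, RPL3, RPL8, RPS2, RPS21 and RPS3. With the GC trend removed and CTCF-dRBR replicate 1 left out, a fit chosen after the data were seen, 13 members were lower (15.9% of 82, background 13.4%) and 0 higher (background 10.9%). These 13 were RPL15, RPL17, RPL27, RPL28, RPL29, RPL3, RPL8, RPS15, RPS2, RPS26, RPS3, RPS9 and RPSA. RPL28 was called in all 4 of these fits, and RPL3, RPL8, RPS2 and RPS3 in 3 each. The fits share libraries, so repeated calls are not independent, and the share of all genes called as often was not counted. Sample quality weights called 12 of the 83 members higher and 47 lower, where 32.5% and 35.8% of all genes were called. These weights were 5.65 for CTCF-WT replicate 2 and 6.19 for CTCF-dRBR replicate 2, and between 0.0969 and 1.26 for the others. That fit thus rested mostly on 1 library of each group. Members named in this paragraph and in the one before it only for such calls were chosen after their values were seen.

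RPS26, an anemia gene whose protein contacts the messenger RNA upstream of the start codon, had a value that depended on 1 library. It had 286, 268 and 269 CPM (CTCF-WT) against 398, 202 and 198 CPM (CTCF-dRBR), with a log2 fold change of −0.13 (SE 0.27, adjusted p = 0.735). Replicate 1 of CTCF-dRBR was the highest of all libraries and the other CTCF-dRBR libraries were the lowest. In its absence the log2 fold change came to −0.46 (adjusted p = 0.0426 from limma-voom). Of all 83 members, 29 had CTCF-dRBR replicates 2 and 3 both below every CTCF-WT library (34.9%, background 22.9%) and 5 had both above (6.02%, background 25%).

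Among the highest log2 fold changes were those of RPL26, RPS20, RPL6 and RPL7, and none passed the test. RPL26, a large-subunit protein, had 1561, 1444 and 1514 CPM (CTCF-WT) against 3612, 1516 and 1490.5 CPM (CTCF-dRBR) and a log2 fold change of 0.42 (SE 0.34, adjusted p = 0.405). Replicate 1 of CTCF-dRBR alone was high, and without it the log2 fold change was −0.0063. RPS20, a small-subunit protein, had 1879, 1713 and 1744 CPM (CTCF-WT) against 3767, 1863 and 1760.0 CPM (CTCF-dRBR), the same pattern, with a log2 fold change of 0.38 (SE 0.29, adjusted p = 0.379) and of 0.023 without that replicate. RPL7, a large-subunit protein, had 2579, 2607 and 2931 CPM (CTCF-WT) against 4392, 3138 and 2938 CPM (CTCF-dRBR) and a log2 fold change of 0.35 (SE 0.17, adjusted p = 0.225). RPL6, another large-subunit protein, had 1421, 1459 and 1729 CPM (CTCF-WT) against 2584, 1805 and 1682 CPM (CTCF-dRBR) and a log2 fold change of 0.38 (SE 0.18, adjusted p = 0.227). In RPL7 the groups did not overlap, although CTCF-WT replicate 3 and CTCF-dRBR replicate 3 were nearly equal, and in RPL6 they overlapped. Without CTCF-dRBR replicate 1 the log2 fold changes were 0.16 (RPL7) and 0.18 (RPL6). The 5 members with every CTCF-dRBR library above CTCF-WT were RPL14, RPL4, RPL7, RPS3A and RPS6, and all 5 had GC contents under the median of the members.

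The paralogs described here are genes of their own that resemble a ribosomal protein gene. RPL22L1 stands in for RPL22, an RNA-binding large-subunit protein deleted in some T-cell leukemias. RPL22L1 had 31.8, 28.8 and 23.9 CPM (CTCF-WT) against 31.7, 21.4 and 21.5 CPM (CTCF-dRBR), with a log2 fold change of −0.22 (SE 0.20, adjusted p = 0.433). RPL22 had 849, 789 and 705 CPM (CTCF-WT) against 877, 688 and 706 CPM (CTCF-dRBR), with −0.049 (SE 0.13, adjusted p = 0.798). In TPM the paralog was at 11.1%, 9.62% and 6.11% (CTCF-WT) against 7.66%, 6.02% and 5.93% (CTCF-dRBR) of RPL22. CTCF-WT replicate 3 lay with CTCF-dRBR replicates 2 and 3, so that the groups overlapped. Without CTCF-dRBR replicate 1 the log2 fold changes were −0.39 (RPL22L1) and −0.16 (RPL22).

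RPS27L, a relative of the small-subunit protein RPS27, had 17.97, 19.96 and 18.7 CPM (CTCF-WT) against 27.9, 22.4 and 18.1 CPM (CTCF-dRBR), with a log2 fold change of 0.23 (SE 0.18, adjusted p = 0.388). RPS27 had 1536, 1288 and 1062 CPM (CTCF-WT) against 522, 892 and 1071 CPM (CTCF-dRBR), with −0.69 (SE 0.28, adjusted p = 0.195). The ratio of RPS27L to RPS27 in TPM was 0.298%, 0.422% and 0.649% (CTCF-WT) against 1.90%, 0.972% and 0.615% (CTCF-dRBR). The groups overlapped only between CTCF-WT replicate 3 and CTCF-dRBR replicate 3, and the differing value of CTCF-dRBR replicate 1 came with low RPS27 and high RPS27L alike. With CTCF-dRBR replicate 1 left out, the log2 fold changes were 0.089 (RPS27L) and −0.39 (RPS27).

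RPL39L, known from testis, is a relative of RPL39, a small protein at the peptide exit tunnel. RPL39L had 18.04, 16.9 and 16.3 CPM (CTCF-WT) against 15.3, 17.2 and 16.1 CPM (CTCF-dRBR) and a log2 fold change of −0.071 (SE 0.12, adjusted p = 0.680), and RPL39 one of 0.065 (SE 0.16, adjusted p = 0.778). The ratio stayed at 0.766%, 0.835% and 0.963% (CTCF-WT) against 0.643%, 0.874% and 0.965% (CTCF-dRBR), with overlapping groups. RPL26L1 had 20.6, 21.2 and 23.5 CPM (CTCF-WT) against 34.4, 20.5 and 19.4 CPM (CTCF-dRBR) and 0.10 (SE 0.23, adjusted p = 0.768), and was at 0.853%, 0.956% and 1.06% (CTCF-WT) against 0.649%, 0.927% and 0.902% (CTCF-dRBR) of RPL26. RPL7L1, which acts in the assembly of the large subunit, had 284, 284 and 289 CPM (CTCF-WT) against 257, 275 and 273 CPM (CTCF-dRBR) and a log2 fold change of −0.088 (SE 0.079, adjusted p = 0.444). Its groups did not overlap, although its CPM spanned a narrow range, and its ratio to RPL7, 3.12%, 2.86% and 2.25% (CTCF-WT) against 1.04%, 1.89% and 2.27% (CTCF-dRBR), was lowest in CTCF-dRBR replicate 1, where RPL7 was highest.

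RPL36AL is outside the members by its name and was described only beside RPL36A. RPL36AL had 162, 153 and 153 CPM (CTCF-WT) against 308, 152 and 145 CPM (CTCF-dRBR). RPL36A had 630.2, 554 and 349 CPM (CTCF-WT) against 412, 283 and 352 CPM (CTCF-dRBR), with a log2 fold change of −0.53 (SE 0.25, adjusted p = 0.224). The ratio in TPM was 13.4%, 14.6% and 24.4% (CTCF-WT) against 42.0%, 30.2% and 22.8% (CTCF-dRBR). It was highest in CTCF-dRBR replicates 1 and 2, while the values of replicate 3 of both groups lay close together. The gene GLA overlaps RPL36A on the opposite strand. RPL3L and RPL10L, known from muscle and testis, were not tested, and their partners RPL3 and RPL10 were among the well expressed members.

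**Figure D4:**
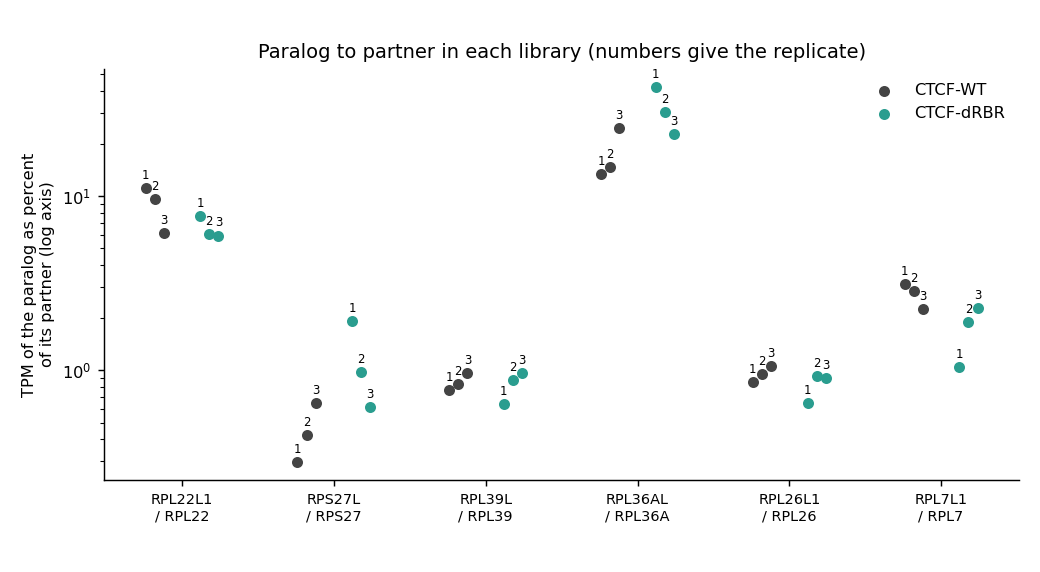
TPM of 6 paralogs as a percent of the TPM of their partner on a log axis, in each library (points, numbered by replicate) of CTCF-WT and CTCF-dRBR. RPL36AL was at 13.4% to 42.0% of RPL36A and RPL22L1 at 5.93% to 11.1% of RPL22, the other 4 were at 3.12% or less, and in each pair the groups overlap in at least 1 library.

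RPLP0, RPLP1 and RPLP2 form the stalk of the large subunit that binds translation factors. RPLP0 had 2764, 2747 and 2301 CPM (CTCF-WT) against 1098, 2173 and 2362 CPM (CTCF-dRBR) and a log2 fold change of −0.54 (SE 0.29, adjusted p = 0.255). RPLP2 had 577, 515 and 397 CPM (CTCF-WT) against 152, 399.8 and 426 CPM (CTCF-dRBR) and −0.72 (SE 0.40, adjusted p = 0.266). RPLP1 had 325, 133 and 116 CPM (CTCF-WT) against 34.3, 171 and 268 CPM (CTCF-dRBR) and −0.51 (SE 0.79, adjusted p = 0.657). In RPLP0 and RPLP2 the low value was CTCF-dRBR replicate 1, and in RPLP1 the libraries of both groups were scattered. Without CTCF-dRBR replicate 1 the log2 fold changes were −0.20 (RPLP0), 0.32 (RPLP1) and −0.25 (RPLP2).

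RPL5 and RPL11 bind the 5S ribosomal RNA, and this complex is known to restrain MDM2 when ribosome assembly is disturbed. RPL5 had 1424, 1442 and 1566 CPM (CTCF-WT) against 2001, 1653 and 1549 CPM (CTCF-dRBR) and a log2 fold change of 0.22 (SE 0.12, adjusted p = 0.251). RPL11 had 1185, 1146 and 1154 CPM (CTCF-WT) against 1799, 1089.8 and 1121 CPM (CTCF-dRBR) and 0.16 (SE 0.20, adjusted p = 0.575). Both were highest in CTCF-dRBR replicate 1, and without it the log2 fold changes were 0.11 for RPL5 and −0.076 for RPL11. RPL10, mutated in T-cell leukemia, had 796, 816 and 591 CPM (CTCF-WT) against 218, 542 and 664 CPM (CTCF-dRBR) and a log2 fold change of −0.76 (SE 0.41, adjusted p = 0.256). Here CTCF-dRBR replicate 1 was lowest, CTCF-dRBR replicate 2 lay below every CTCF-WT library and replicate 3 above CTCF-WT replicate 3. The log2 fold change of RPL10 was −0.28 without CTCF-dRBR replicate 1.

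Of the 18 Diamond-Blackfan anemia genes, 14 had a log2 fold change below 0 and 4 above, with a median of −0.16. Of all 14044 genes tested, 7112 were below 0 and 6932 above. At an unadjusted p under 0.05, 3 of the 18 were lower (16.7%, background 12.8%), RPL27 and RPS27 among them, and 0 were higher. RPS19, the member most often mutated in this anemia, had 832, 801 and 595 CPM (CTCF-WT) against 191, 501 and 637 CPM (CTCF-dRBR) and a log2 fold change of −0.90 (SE 0.44, adjusted p = 0.230). RPS14, whose loss marks a myelodysplastic syndrome, had 787, 808 and 536 CPM (CTCF-WT) against 196, 429.5 and 562 CPM (CTCF-dRBR) and −0.94 (SE 0.40, adjusted p = 0.199). Both were lowest in CTCF-dRBR replicate 1, and the groups overlapped. RPS14 has a GC content of 48.0% over the union of its annotated exons (5082 bases), at the middle of the members. Its log2 fold change was −0.93 with the GC trend removed, −0.51 without CTCF-dRBR replicate 1 and −0.50 with both. For RPS19 these were −0.40, −0.38 and −0.16.

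The remaining members are given by their ranges. The members not described above that are reported here had log2 fold changes between −0.88 (RPS9) and 0.34 (RPS6). The 29 members tested with a small nucleolar RNA within the gene had a median of −0.15, and the 53 without one also had −0.15. The 46 members with a TOP-like start had a median of −0.33 and the 18 tested with no such start one of −0.063, and with the GC trend removed these were −0.18 and −0.13. The 4 members on the X chromosome, RPL10, RPL36A, RPL39 and RPS4X, had a median of −0.23, with 2 above 0 and 2 below.

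Copies of these genes could take part of their reads. In all, 817 pseudogenes and readthrough genes named for 75 members held between 3.37% and 4.36% of the joint counts in each library. The part in copies was over 10% for 6 members, among them RPL14, RPL41, RPL7A, RPL9 and RPS3A, with the highest mean in RPL41 (43.3%). Adding the copies moved the log2 fold change by at most 0.12, in RPL9, from 0.14 to 0.024. A coding gene overlaps 26 members on the opposite strand. The deposited tables are labelled as stranded, but the strand setting of the counting is not given in the sources used here, and whether reads of RPL28 and UBE2S, or of RPL36A and GLA, were kept apart was not tested.

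Other genes of the same pathway were taken from lists that were fixed with earlier results of these data known, so their counts are descriptions, and in none of the lists did a gene pass an adjusted p under 0.05. Of 3 further ribosomal components, FAU, which encodes the small-subunit protein eS30 as a fusion, had 283, 278 and 239 CPM (CTCF-WT) against 195, 195 and 221 CPM (CTCF-dRBR) and a log2 fold change of −0.39 (SE 0.11, adjusted p = 0.141). The groups did not overlap. GNB2L1, the gene of RACK1, had a log2 fold change of −0.065 (SE 0.21, adjusted p = 0.838), which was 0.18 without CTCF-dRBR replicate 1. With the GC trend removed, the log2 fold changes were −0.080 (FAU) and 0.14 (GNB2L1).

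Among 18 other TOP messenger RNAs, a list that also holds FAU and GNB2L1, the median log2 fold change was 0.17, with 2 higher (11.1%, background 12.6%) and 2 lower (11.1%, background 12.8%) at an unadjusted p under 0.05. The higher ones were EIF3E, a subunit of initiation factor eIF3, and EIF3L, another. EIF3E had 698, 745 and 859.9 CPM (CTCF-WT) against 1515, 1095 and 973 CPM (CTCF-dRBR) and a log2 fold change of 0.62 (SE 0.18, adjusted p = 0.148). EIF3L had 431, 424 and 475 CPM (CTCF-WT) against 553, 603 and 567 CPM (CTCF-dRBR) and 0.37 (SE 0.090, adjusted p = 0.126). With the GC trend removed these were 0.27 (EIF3E) and 0.55 (EIF3L). FAU was 1 of the lower ones. EEF1A1, the elongation factor that brings transfer RNA, had 16134, 16538 and 16843 CPM (CTCF-WT) against 20066, 17979 and 18507 CPM (CTCF-dRBR), with all 3 CTCF-dRBR libraries above CTCF-WT. Its log2 fold change was 0.19 (SE 0.086, adjusted p = 0.212 from limma-voom), and 0.083 with the GC trend removed. The median of this list was above 0 and that of the members below 0, both in the fit that keeps the GC trend. This difference was not tested.

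Of 10 regulators of TOP messages, 3 were lower (30%, background 12.8%) and 1 higher (10%, background 12.6%) at an unadjusted p under 0.05. LARP1, which binds the TOP motif and the cap, had 257, 235 and 221 CPM (CTCF-WT) against 124, 131 and 151 CPM (CTCF-dRBR). No CTCF-dRBR library reached the lowest of CTCF-WT, with a log2 fold change of −0.81 (SE 0.11, adjusted p = 0.0959) and of −0.76 without CTCF-dRBR replicate 1. EIF4EBP1, a translation repressor inhibited by mTOR, had 114, 111 and 104 CPM (CTCF-WT) against 21.3, 57.9 and 85.97 CPM (CTCF-dRBR) and −1.13 (SE 0.44, adjusted p = 0.186), lowest in CTCF-dRBR replicate 1. RPS6KB2, a kinase of the ribosomal protein S6, had −1.02 (SE 0.39, adjusted p = 0.183), and the higher one was TIA1, with 0.33 (SE 0.13, adjusted p = 0.184). Without CTCF-dRBR replicate 1 the log2 fold changes were −0.64 (EIF4EBP1), −0.64 (RPS6KB2) and 0.22 (TIA1). With the GC trend removed they were −0.41 (EIF4EBP1), −0.44 (RPS6KB2), −0.62 (LARP1) and −0.056 (TIA1), so that TIA1 took the other sign. MTOR itself had 134, 134 and 133 CPM (CTCF-WT) against 84.9, 117 and 129.5 CPM (CTCF-dRBR) and −0.29 (SE 0.16, adjusted p = 0.262), which was −0.13 without CTCF-dRBR replicate 1.

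Of 8 chaperones that carry single ribosomal proteins, 4 were lower (50%, background 12.8%) and 0 higher at an unadjusted p under 0.05. TSR2, the chaperone of RPS26, had 32.9, 29.7 and 22.9 CPM (CTCF-WT) against 13.5, 14.5 and 18.1 CPM (CTCF-dRBR) and a log2 fold change of −0.88 (SE 0.19, adjusted p = 0.114). AAMP had 95.8, 95.1 and 74.6 CPM (CTCF-WT) against 36.3, 48.5 and 62.9 CPM (CTCF-dRBR) and −0.84 (SE 0.21, adjusted p = 0.131). GRWD1, the chaperone of RPL3, had −0.97 (SE 0.38, adjusted p = 0.186), and PDCD2L had −0.67 (SE 0.22, adjusted p = 0.157). All 4 had GC contents of at least 52.4%, and with the GC trend removed their log2 fold changes were −0.64 (TSR2), −0.22 (AAMP), −0.36 (GRWD1) and −0.33 (PDCD2L). That of GRWD1 was −0.56 without CTCF-dRBR replicate 1. Of 6 transcription factors of these genes, 0 were past an unadjusted p under 0.05 in either direction. MYC had 237, 215 and 223 CPM (CTCF-WT) against 134, 196 and 229 CPM (CTCF-dRBR) and −0.30 (SE 0.20, adjusted p = 0.321), which was −0.091 without CTCF-dRBR replicate 1.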

How the data were processed

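Per the labels and methods, the authors trimmed reads (Trim Galore 0.6.3), aligned them to GRCh37 (STAR 2.7.9a) and quantified Gencode v19 genes (RSEM 1.3.1). The deposited expected counts are RSEM estimates, not normalized. The deposited TPM were scaled by the authors over all genes. The labels give single-end and the methods paired-end reads.

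Genes with 1 CPM or more in any library were kept, and limma-voom (limma 3.58.1, edgeR 4.0.16, R 4.3.3) with TMM was fitted on all 14044 genes, two-sided, with Benjamini-Hochberg adjustment and a threshold of 0.05. Counts were rounded for edgeR and DESeq2 (1.42.0). GC and length were taken over the union of a gene's Gencode exons lifted to GRCh37, for 97.2% of genes tested. Trends were removed by loess (span 0.5, degree 2). Single values had exact permutation tests (scipy 1.17.1). Other normalizations, filters, tools, TPM scales, a replicate block and left-out libraries were tried as alternatives. The members and lists were chosen with earlier results of these data known. Named members were, by rule, those with the 5 highest TPM, the 5 largest and 5 smallest log2 fold changes, the 5 smallest p, the paralogs with partners, the stalk, 5S, leukemia and 3 anemia members. A count of 0 allows 3 counts (at most 0.0999 CPM), for counting error only. Figures used matplotlib 3.10.9. A few members and related genes are not reported here singly, but remain in the counts and medians.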

Additional observations from a re-analysis of the deposited data

How the results depend on the processing

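By limma-voom 0 members were past an adjusted p under 0.05, and at an unadjusted p under 0.05 there were 0 higher and 17 lower in CTCF-dRBR. Here the percent after a count is the share of all genes called in that direction in the same fit. Past the adjusted threshold were 8 (6.14%) lower in DESeq2, 4 (5.48%) lower with the GC trend removed, 13 (13.4%) lower with it removed and without CTCF-dRBR replicate 1 (chosen after seeing the data), 12 (32.5%) higher and 47 (35.8%) lower with sample quality weights, 1 (5.17%) higher and 1 (0.762%) lower on log2(TPM + 1), and 1 (4.53%) higher and 1 (0.883%) lower on log2(TPM + 0.1). Fits that left out 1 library each gave 0 to 4 lower, the 4 (2.37%) arising in the absence of CTCF-dRBR replicate 1. By unadjusted p these fits had 0 to 6 higher and 7 to 30 lower. There were 7 (5.76%) lower in the absence of CTCF-WT replicate 1, 7 (5.56%) in that of CTCF-WT replicate 2, 27 (16.6%) in that of CTCF-dRBR replicate 1, 10 (6.75%) in that of replicate 2 and 30 (23.4%) in that of replicate 3, where 6 (17.6%) were higher. By unadjusted p, higher were also 14 (34.0%) with quality weights, 6 (26.8%) on log2(TPM + 1), 7 (26.4%) on log2(TPM + 0.1), 5 (6.82%) with no filter, 4 (16.8%) with library size alone, 1 (18.1%) on protein-coding TPM, 1 (15.5%) by upper quartile, 1 (14.4%) with the GC trend removed, 1 (12%) with the length trend removed, and 1 (19%) with the GC trend removed without CTCF-dRBR replicate 1. Lower were 48 (37.4%) with quality weights, 34 (7.14%) with no filter, 27 (21.2%) with the GC trend removed without CTCF-dRBR replicate 1, 7 (6.71%) on protein-coding TPM, 1 (2.02%) on log2(TPM + 1) and 1 (2.16%) on log2(TPM + 0.1). The fit with no filter covered 38604 genes, most of them under 1 CPM in every library and so unlike the members. Its percents are therefore no like background for its counts of members. With the filter, over 14044 genes, 17 members (12.8%) were lower.

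The median log2 fold change of −0.15 was −0.22 with quality weights, −0.076 with library size alone, −0.24 with no filter and −0.063 with the length trend removed. On log2(TPM + 1) and log2(TPM + 0.1) it was 0.34 and 0.35, where the median of all genes was 0.40 and 0.54, so that the members lay below that shift. With no filter the median of all genes, most of them under 1 CPM in every library, was 0.19. The large subunit (−0.11) had 0.36 on either TPM scale, −0.041 with library size alone, −0.18 with no filter and −0.056 with the length trend removed. The small subunit (−0.32) had 0.16 on either TPM scale and −0.15 with the GC trend removed without CTCF-dRBR replicate 1, and the paralogs had 0.50 and 0.52 on the TPM scales. The difference of the share (−0.55 percentage points) was −0.082 with all genes as the denominator, −0.84 on the TPM of protein-coding genes and 3.21 on the TPM of all genes, where the direction turned (a setting added after seeing the data).

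Same-numbered libraries had correlations of their deviations of −0.34, 0.099 and −0.47, which showed no pairing by number. They cannot exclude one, since the GC trends of the libraries differ and enter these deviations, and the labels name no pairs. With a replicate block 0 members passed the adjusted threshold and 8 (5.55%) were lower at an unadjusted p under 0.05 (median −0.15), and with the GC trend also removed 0 passed and 14 (11.8%) were lower.

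Log2 fold changes of named members that took the other sign, none of them past the test by limma-voom on all libraries, were as follows. With the GC trend removed, the values were 0.048 (RPL39L), −0.053 (RPL5). With the GC trend removed and without CTCF-dRBR replicate 1, the values were −0.061 (RPL11), −0.083 (RPL26), −0.030 (RPL26L1), −0.10 (RPL39), 0.024 (RPL39L), −0.024 (RPL5), 0.33 (RPLP1), 0.024 (RPLP2), −0.087 (RPS20), −0.085 (RPS24), −0.028 (RPS27L). With the length trend removed, the values were 0.10 (RPL21), 0.0092 (RPL22), 0.030 (RPS26). On log2(TPM + 0.1), the values were 0.53 (RPL21), 0.77 (RPL22), 0.35 (RPL22L1), 0.41 (RPL39L), 0.35 (RPL7L1), 0.34 (RPLP0), 0.35 (RPS26), 0.0098 (RPS3). On log2(TPM + 1), the values were 0.53 (RPL21), 0.77 (RPL22), 0.34 (RPL22L1), 0.39 (RPL39L), 0.34 (RPL7L1), 0.34 (RPLP0), 0.35 (RPS26), 0.0099 (RPS3). On the log2 of protein-coding TPM + 1, the values were 0.061 (RPL21), 0.30 (RPL22). With library size alone, the values were 0.0079 (RPL21), 0.024 (RPL22), 0.0022 (RPL39L). Without a filter, the values were −0.027 (RPL39). With the replicate block and the GC trend removed, the values were 0.053 (RPL39L), −0.053 (RPL5). With limma sample quality weights, the values were −0.068 (RPL11), −0.047 (RPL26L1), 0.0024 (RPL39L), 0.17 (RPLP1), −0.0074 (RPS24). Over the fits that left out 1 library each, the values ran from −0.076 to 0.29 (RPL11), −0.16 to 0.016 (RPL22), −0.0063 to 0.64 (RPL26), −0.13 to 0.24 (RPL26L1), −0.066 to 0.19 (RPL39), −1.08 to 0.32 (RPLP1), −0.038 to 0.45 (RPS24), −0.46 to 0.045 (RPS26). The causes were not tested. With 3 libraries a group, of which CTCF-dRBR replicate 1 was the shallowest, differences within the spread could not be detected.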
